A study of Drosophila melanogaster with 6 samples.

Results

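The genes described are a named set of Hippo and Fat/Dachsous growth control genes of the fly: the cadherin gene ft and that of its ligand, ds, the Golgi kinase gene fj, the apical regulators ex, Mer and kibra, the core kinases hpo and wts, the coactivator yki and its DNA-binding partner sd. The rule lists them by name and sets no threshold on a measured value, although earlier results of these data were known when the list was drawn up. Of the 10 genes, 9 were matched by symbol to an identifier among the 13955 genes counted in each library, and ds is not analysed here. RNA came from whole wing discs, the larval epithelia that form the adult wing, of females at the wandering stage of the third instar kept at 28 °C, with 3 control and 3 Nrf2 overexpression libraries. By the Methods, larvae of both groups carried single copies of hs-FLP, of the driver tub>>Gal4 together with UAS-CD8-GFP, and of tub-Gal80ts, a temperature-sensitive repressor of Gal4. The overexpression group carried UAS-nrf2 in addition, where Nrf2 stands for cnc (CncC), the fly ortholog of the mammalian stress-response transcription factor. Because the tubulin promoter is not restricted to a cell type or disc compartment, cell-autonomous and indirect effects cannot be told apart. The share of disc cells that expressed the transgene and the number of larvae per library are not given in the sources used here, and p-values measure only the spread between these libraries, which may be technical. The labels call the control wild type, with yw in the sample titles. Should the control larvae have had no driver, strain, driver and Gal80ts cannot be told apart from Nrf2.

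In the Hippo pathway, the kinase Hippo activates the kinase Warts, which phosphorylates Yorkie and keeps it out of the nucleus. When Warts is less active, Yorkie enters the nucleus, binds Scalloped and switches on genes for growth and survival. Expanded, Merlin and Kibra act together at the apical membrane to activate the kinases, and their own genes are described as Yorkie targets, which forms a negative feedback loop. Fat is a giant cadherin that binds Dachsous on the neighbouring cell, restrains the myosin Dachs and thereby keeps Warts stable. Four-jointed phosphorylates the extracellular domains of Fat and Dachsous in the Golgi and tunes their binding. In the wing disc the pathway limits organ size, and differences in its activity between neighbouring cells have been tied to cell competition.

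Library totals lay between 16464410 and 16682764 counts. The overexpressed gene cnc ranged from 1777 to 1983 counts in the controls and reached 84044, 147169 and 172120 in replicates 1, 2 and 3 of Nrf2 overexpression. Wing disc identity genes were abundant throughout, with 8 matched markers that summed to 1120 to 1370 CPM (counts scaled by the library total) in control and 1310 to 1600 CPM in Nrf2 overexpression. Markers of the fat body, a tissue that can adhere to dissected discs, summed to 8.69 to 416 CPM in control and 9.48 to 79.8 CPM in Nrf2 overexpression, and their part in the results was not tested.

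The 3 apical regulators ex, Mer and kibra rose in Nrf2 overexpression, by 1.97-fold, 1.51-fold and 1.44-fold. The cadherin gene ft and the Yorkie partner sd rose less, by 1.36-fold and 1.37-fold, and hpo fell to 0.871 of its control level. The genes wts, yki and fj did not pass the test, with fold changes of 1.14, 1.03 and 0.95. In whole discs, fewer cells that express a gene and less RNA per cell cannot be told apart. All 9 genes passed the filter on low counts, and their lowest count in any library was 760. By edgeR's quasi-likelihood test, 5 of the 9 were higher and 1 was lower at an adjusted p-value under 0.05, against 62.5% of the 8361 genes tested, 30.9% of them higher and 31.6% lower. The share called is thus near that of all genes and is not a result about the set. With a fold change of at least 1.4 required as well, ex, Mer and kibra remained, 3 of 9, against 20.5% of all genes. The control and Nrf2 overexpression libraries did not overlap for 5 of the 9 genes, 4 higher and 1 lower, against 68.4% of all genes tested. The median log2 fold change was 0.44 over the 9 genes and -0.01 over all genes tested, and after removal of a trend with exon length it was 0.05 over the 9 genes and -0.02 over all. Without control replicate 2, control replicate 3 or Nrf2 overexpression replicate 3, 3 genes were higher instead of 5. In these fits 2308 of 8493, 2171 of 8516 and 2516 of 8517 genes tested were higher.

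**Figure D1:**
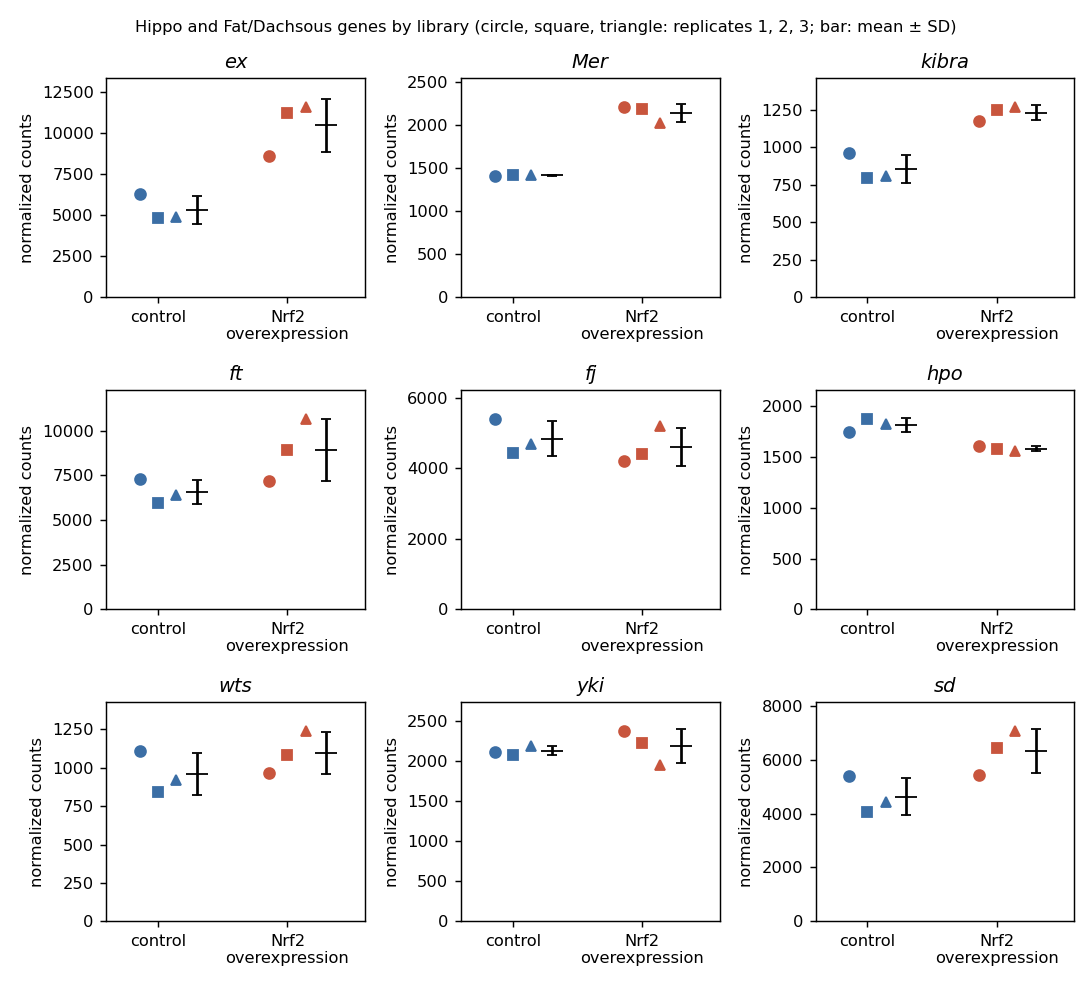
Normalized counts (vertical axis, from 0) of the 9 genes in each library, with control in blue and Nrf2 overexpression in red. Symbols mark replicates 1 to 3 and bars the mean ± SD (n = 3). The groups are apart for ex, Mer and kibra, whereas those of ft, fj, wts and yki overlap.

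A feature of the whole data set bears on most of these genes and is therefore given first. Across the genes tested, the log2 fold change rose with the summed length of a gene's exons, with a slope of 0.21 for each doubling of length. Several genes of this pathway are long: the exons of ft sum to 16.9 kb, those of sd to 8.77 kb, of ex to 6.67 kb, of wts to 5.80 kb and of kibra to 5.75 kb. The exons of fj (3.55 kb), Mer (3.40 kb), hpo (2.80 kb) and yki (1.53 kb) are shorter. A loess curve through all genes gave a log2 fold change of 0.56 at the length of ft and 0.40 at that of sd, against measured values of 0.44 and 0.45. The genes ft and sd therefore lay near the level of genes as long as they are. At the length of ex the curve gave 0.33, against a measured value of 0.98. For Mer it gave 0.13 against 0.60, and for kibra 0.29 against 0.52, so these 3 genes lay above the curve. Measured values were below the curve for fj (-0.07 against 0.15), hpo (-0.20 against 0.06) and wts (0.19 against 0.30). For yki the value was above it (0.04 against -0.08). Over all genes tested, the quartiles of the log2 fold change were -0.43 and 0.43, and the scatter about the curve was not measured. The counts were also fitted with this trend removed within each library, and values from both fits are given for the 9 genes. The cause of the trend was not tested.

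**Figure D2:**
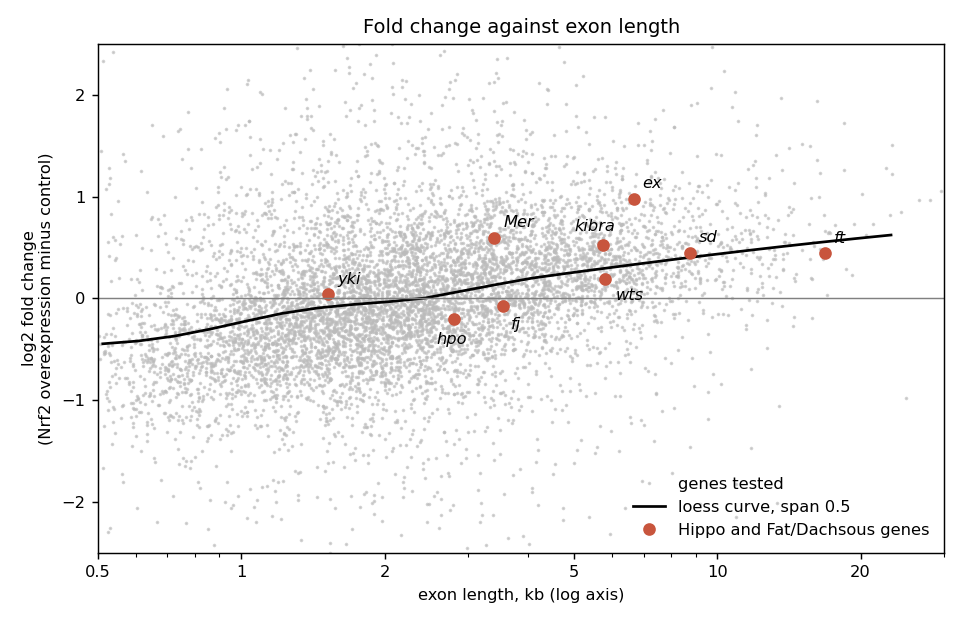
Log2 fold change (Nrf2 overexpression minus control) against exon length in kb on a log axis, for 8159 tested genes with an annotated length (grey), with a loess curve (black) and the 9 genes (red). ft (0.44) and sd (0.45) lie near the curve, ex, Mer and kibra above it, and 307 genes lie outside the limits drawn.

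The slope with length differed between libraries of the same group. Relative to the mean of the 6 libraries, control replicates 1, 2 and 3 had slopes of -0.04, -0.15 and -0.12, whereas those of Nrf2 overexpression had 0.01, 0.15 and 0.16. Control replicate 1 and Nrf2 overexpression replicate 1 were nearest to each other in this respect. This pair was picked after the slopes were seen, and its values are a description with no test. Between these libraries, ft had 7322 and 7172 normalized counts, and sd had 5381 and 5446. The same pair gave 6299 and 8629 normalized counts for ex, 1407 and 2205 for Mer and 964 and 1175 for kibra. So ex, Mer and kibra differed in the same direction as over all libraries. The ratio of Nrf2 overexpression to control in this pair was 0.979 for ft and 1.01 for sd. For the remaining genes it was 0.779 for fj, 0.872 for wts, 0.921 for hpo and 1.12 for yki. The log2 ratio of fj, a gene not called over all libraries, was -0.36, larger in size than that of kibra (0.286). The ratio of wts was below 1, whereas wts was higher on average over all libraries. Nrf2 overexpression replicate 1 also had the fewest cnc counts of its group, 84044 against 147169 and 172120. In this pair a nearer slope with length and a lower cnc level cannot be told apart.

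expanded (ex, FBgn0004583) encodes a FERM-domain scaffold that recruits the Hippo kinases to the apical membrane and also binds Yorkie directly. The gene spans positions 431227 to 448701 of chromosome 2L, plus strand, in the BDGP6.54 assembly. Counts were 6405, 4614 and 4695 in the controls, against 8825, 11662 and 11675 with Nrf2 overexpression. Every Nrf2 overexpression library was above every control library, and replicate 1 of either group was the nearest to the other group. Normalized counts averaged 5334 ± 836 without and 10487 ± 1620 with Nrf2 overexpression (SD, n = 3 in each). This is a log2 fold change of 0.98 ± 0.15 (SE), with an adjusted p = 0.000317 by edgeR's quasi-likelihood test. With the length trend removed it was 0.64 ± 0.09 (SE; edgeR, adjusted p = 0.000263). The exons of ex share 6.71% of their bases with crq on the opposite strand, which had 695 to 793 counts over all libraries, and whether the counting used strand is not given in the sources used here.

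Merlin (Mer, FBgn0086384) encodes the fly ortholog of the NF2 tumour suppressor, a FERM-domain protein that brings Warts to the membrane. On chromosome X it runs from 19689697 to 19693500, minus strand. Its counts were 1431, 1351 and 1362 in the controls, compared with 2255, 2268 and 2028 with Nrf2 overexpression. The control libraries were close together, with a coefficient of variation of 0.272% after normalization, and all 3 Nrf2 overexpression libraries were above them. Random sampling of reads alone would give a wider spread at this level, so the value is not a measure of precision. Normalized counts averaged 1412 ± 3.84 and 2135 ± 103 (SD, n = 3 in each). In log2 units Mer rose by 0.60 ± 0.08 (SE; edgeR's quasi-likelihood test, adjusted p = 0.000117), and by 0.47 with the length trend removed (adjusted p = 0.000227).

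kibra (FBgn0262127) encodes a WW-domain scaffold that binds Merlin and Expanded. It occupies 14697689 to 14724261 on the minus strand of chromosome 3R. The controls had 980, 760 and 777 counts, and the Nrf2 overexpression libraries 1202, 1297 and 1275. The groups did not overlap, and control replicate 1 was the highest of its group, as for ex. After normalization the means were 855 ± 94.1 and 1230 ± 48.7 (SD, n = 3 in each). On the log2 scale the difference was 0.52 ± 0.09 (SE; edgeR's quasi-likelihood test, adjusted p = 0.000768). With the length trend removed it was 0.23 ± 0.06 (SE; edgeR, adjusted p = 0.0104), and it no longer passed when control replicate 3 was left out as well (0.20, adjusted p = 0.0617).

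fat (ft, FBgn0001075) encodes the giant atypical cadherin that acts as the receptor of the Fat/Dachsous branch. Its position is 4198404 to 4221796 on the minus strand of chromosome 2L, with a coding sequence of 15.4 kb. Counts of ft were 7445, 5703 and 6183 in the controls and, with Nrf2 overexpression, 7334, 9285 and 10716. The groups overlapped, since control replicate 1 was above Nrf2 overexpression replicate 1. Normalized counts averaged 6570 ± 689 and 8921 ± 1742 (SD, n = 3 in each). The change was 0.44 ± 0.15 in log2 units (SE; edgeR's quasi-likelihood test, adjusted p = 0.0237). With the length trend removed the sign turned, to -0.12 ± 0.08 (SE; edgeR, adjusted p = 0.228). The call was also lost without control replicate 2 (adjusted p = 0.0909), control replicate 3 (0.0781), Nrf2 overexpression replicate 2 (0.0552) or Nrf2 overexpression replicate 3 (0.0808).

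four-jointed (fj, FBgn0000658) encodes the Golgi kinase of the cadherin domains of Fat and Dachsous, and its gene is described as a target of Yorkie. It is a single-exon gene on the plus strand of chromosome 2R, from 18232761 to 18236311. Among the controls fj had 5494, 4244 and 4523 counts, and among the Nrf2 overexpression libraries 4304, 4572 and 5240. The ranges overlapped almost entirely, with the highest count of all in control replicate 1. In log2 units the difference was -0.07 ± 0.11 (SE; edgeR's quasi-likelihood test, adjusted p = 0.595), or -0.22 with the length trend removed (adjusted p = 0.0637), which passed once Nrf2 overexpression replicate 3 was left out as well (-0.30, adjusted p = 0.0119). Within each library, the log2 ratio of fj to ft was -0.44, -0.43 and -0.45 for control and -0.77, -1.02 and -1.03 for Nrf2 overexpression (exact permutation p = 0.1). This ratio was lower in every Nrf2 overexpression library, but the exons of fj and ft differ widely in length.

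hippo (hpo, FBgn0261456) encodes the upstream kinase of the cascade, the fly ortholog of the mammalian MST kinases. The gene is on chromosome 2R, minus strand, between 19493996 and 19496856. Its counts were 1771, 1788 and 1759 in the controls but 1640, 1636 and 1569 with Nrf2 overexpression. Both groups were tight, with coefficients of variation of 3.63% and 1.41% after normalization, and did not overlap. The log2 difference was -0.20 ± 0.07 (SE; edgeR's quasi-likelihood test, adjusted p = 0.037), and -0.26 with the length trend removed (adjusted p = 0.00324). The call was lost with total counts only (adjusted p = 0.108), with DESeq2's Wald test (0.0553) and without a filter on low counts (0.0591). It was also lost without control replicate 2 (0.114), control replicate 3 (0.125), Nrf2 overexpression replicate 2 (0.0836) or Nrf2 overexpression replicate 3 (0.0864). The exons of hpo share 4.64% of their bases with Rep on the opposite strand, and Rep was lower as well, by a log2 difference of -0.32 (edgeR, adjusted p = 0.0216).

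warts (wts, FBgn0011739) encodes the kinase of Yorkie, the fly ortholog of the mammalian LATS kinases. It is located at 30789625 to 30806619 on the minus strand of chromosome 3R. There were 1129, 805 and 888 counts of wts in the controls against 990, 1124 and 1246 with Nrf2 overexpression, and the groups overlapped. The log2 difference of wts was 0.19 ± 0.12 (SE; edgeR's quasi-likelihood test, adjusted p = 0.186), or -0.10 with the length trend removed (adjusted p = 0.273). It passed the threshold without control replicate 1, the highest of the controls (0.31, adjusted p = 0.0462), and under no other alternative.

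yorkie (yki, FBgn0034970) encodes the transcriptional coactivator restrained by Warts, the fly ortholog of YAP and TAZ. It sits at 24065975 to 24068485 of chromosome 2R, minus strand. Control libraries had 2156, 1993 and 2116 counts of yki, and Nrf2 overexpression libraries had 2435, 2323 and 1971. The lowest and the highest count both came from Nrf2 overexpression libraries. In log2 units yki differed by 0.04 ± 0.09 (SE; edgeR's quasi-likelihood test, adjusted p = 0.729), or 0.13 with the length trend removed (adjusted p = 0.131), which passed once Nrf2 overexpression replicate 3 was left out as well (0.17, adjusted p = 0.0457). These counts are of RNA, whereas Yorkie activity is set by phosphorylation, which was not measured in these libraries.

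scalloped (sd, FBgn0003345) encodes the TEAD-family protein that binds DNA for Yorkie and, with Vestigial, specifies the wing. Its 22 annotated transcripts span 15804370 to 15827682 on the plus strand of chromosome X. Counts of sd were 5471, 3860 and 4280 for the controls, while Nrf2 overexpression gave 5569, 6687 and 7100. The groups did not overlap, but replicate 1 of each group had nearly the same count. Normalized means were 4621 ± 688 and 6314 ± 814 (SD, n = 3 in each). The rise was 0.45 ± 0.13 on the log2 scale (SE; edgeR's quasi-likelihood test, adjusted p = 0.0142). With the length trend removed it was 0.05 ± 0.08 (SE; edgeR, adjusted p = 0.587). The call was also lost without control replicate 2 (adjusted p = 0.0635), control replicate 3 (0.0596) or Nrf2 overexpression replicate 3 (0.052).

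**Figure D3:**
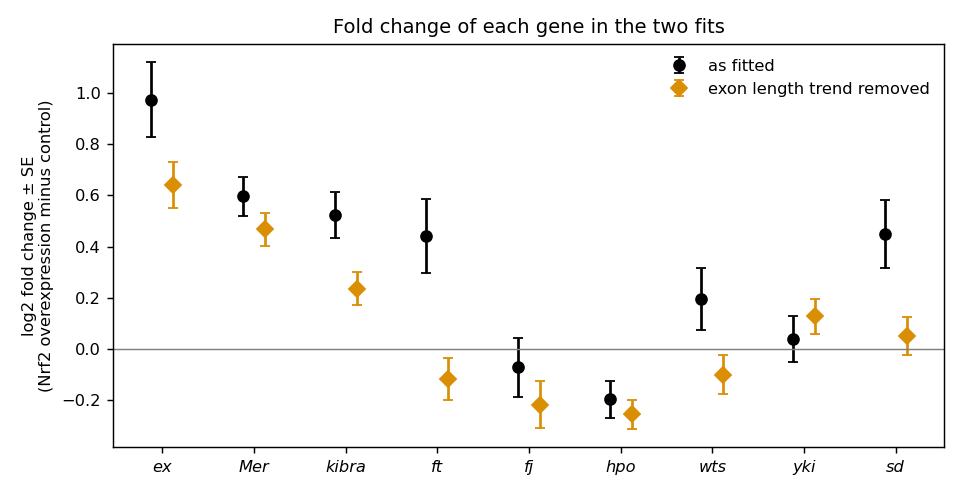
Log2 fold change (Nrf2 overexpression minus control) ± standard error of the 9 genes, from the fit of 3 against 3 libraries (black circles) and from the fit with the trend with exon length removed (orange diamonds). ex, Mer and kibra stay above 0 in both, while ft falls from 0.44 to -0.12 and sd from 0.45 to 0.05.

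Ratios between genes within a library do not depend on the scaling between libraries, and between genes of similar exon length they depend less on the length trend. The log2 ratio of ex to wts was 2.504, 2.518 and 2.402 for control and 3.155, 3.375 and 3.228 for Nrf2 overexpression. All 3 Nrf2 overexpression libraries were higher, by a mean of 0.78. For kibra to wts, whose exons are nearly equal in length, the log2 ratio was -0.20, -0.08 and -0.19 in the controls against 0.28, 0.21 and 0.03. It was higher in every Nrf2 overexpression library, by a mean of 0.33. For Mer to fj it was -1.94, -1.65 and -1.73 in the controls against -0.93, -1.01 and -1.37, a mean difference of 0.67 with no overlap. These 3 pairs were chosen after the trend with exon length was seen. In an exact two-sided permutation test, each gave p = 0.1, the smallest that 3 against 3 libraries allow, and an adjusted p of 0.2 over the 10 ratios compared. With so few libraries no ratio could pass the threshold.

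The log2 ratio of ex to kibra was 2.71, 2.60 and 2.59 for control and 2.88, 3.17 and 3.19 for Nrf2 overexpression, with no overlap (exact permutation p = 0.1, adjusted p = 0.2). That of ex to Mer overlapped between the groups (exact permutation p = 0.2, adjusted p = 0.25). Among the kinases and nuclear effectors, the groups overlapped for each of the ratios computed. The log2 ratio of hpo to wts averaged 0.93 ± 0.26 for control and 0.53 ± 0.20 for Nrf2 overexpression (SD, n = 3 in each; exact permutation p = 0.2, adjusted p = 0.25). For yki to wts the means were 1.164 ± 0.202 and 1.002 ± 0.321 (SD, n = 3 in each; exact permutation p = 0.6, adjusted p = 0.667), and their difference went from -0.16 to 0.0083 without Nrf2 overexpression replicate 3, to -0.31 without replicate 1 and to -0.28 without control replicate 1. For sd to yki they were 1.10 ± 0.21 and 1.52 ± 0.33 (SD, n = 3 in each; exact permutation p = 0.2, adjusted p = 0.25), with a difference of 0.42 that was 0.255 without Nrf2 overexpression replicate 3. Vestigial (vg) is the partner with which Scalloped specifies wing tissue, and vg was higher by 0.44 ± 0.09 in log2 units (SE; edgeR, adjusted p = 0.00249), or by 0.26 with the length trend removed. The log2 ratio of vg to sd averaged -0.71 ± 0.12 and -0.72 ± 0.08 (SD, n = 3 in each; exact permutation p = 0.9, adjusted p = 0.9).

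**Figure D4:**
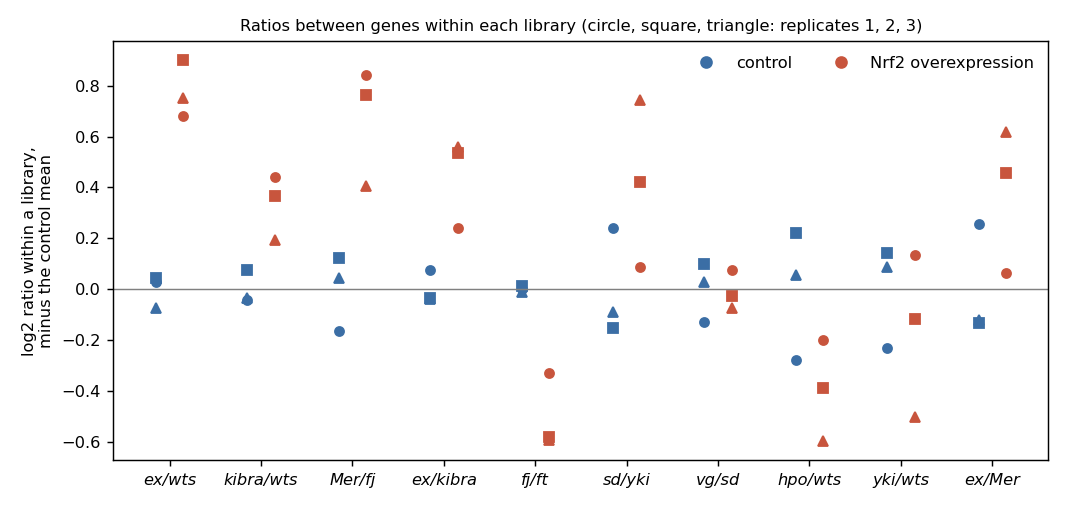
Log2 ratio between the counts of gene pairs within each library, minus the mean of the control libraries for that pair, with control in blue, Nrf2 overexpression in red and symbols for replicates 1 to 3. The groups are apart for ex/wts, kibra/wts, Mer/fj, ex/kibra and fj/ft and overlap for the other pairs.

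Levels were also compared between the genes, as CPM per kb of exon (mean ± SD, n = 3). In control, yki (82.6 ± 3.72) and fj (80.8 ± 11.2) were highest and did not differ beyond their spread. Next came ex (47.4 ± 9.12), hpo (38.1 ± 0.0841) and sd (31.2 ± 5.77), followed by Mer (24.5 ± 0.787) and ft (23.1 ± 3.24), which overlapped. The lowest levels per kb were those of wts (9.78 ± 1.76) and kibra (8.80 ± 1.28), which overlapped too. In Nrf2 overexpression ex was first, at 96.5 ± 14.7 CPM per kb, but its range overlapped that of yki (88.3 ± 9.60), and that of yki overlapped fj (79.6 ± 8.08). Levels of sd (44.2 ± 5.4) and Mer (38.6 ± 2.42) overlapped, as did those of hpo (34.6 ± 0.884) and ft (32.5 ± 6.03). The lowest were again kibra (13.1 ± 0.517) and wts (11.6 ± 1.32), which overlapped. By the length of its longest transcript, 6.005 kb, instead of all its exons, the level of sd was 45.6 CPM per kb in control and 64.5 in Nrf2 overexpression.

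Other regulators of the Hippo kinases were examined as a list of 13 genes, all of which were tested. Of these, 7 were higher and 0 lower by edgeR's test, against 30.9% and 31.6% of all genes. Their median log2 fold change was 0.38 against -0.01 over all genes, but 0.04 with the length trend removed. With DESeq2 or limma-voom 0 were lower, where 2489 and 2657 of all 8361 genes were. At an unadjusted p under 0.05, 8 were higher and 0 lower, but the share of all genes at that limit was not counted. The largest change in the list was that of Hipk, a kinase that promotes Yorkie activity. Hipk had 2959, 2425 and 2552 counts in the controls against 5364, 8548 and 6113, a log2 difference of 1.27 ± 0.15 (SE; edgeR, adjusted p = 9.32e-05). Tao, the kinase that phosphorylates Hippo, was higher by 0.64 ± 0.10 in log2 units (SE; edgeR, adjusted p = 0.000363). Rassf, which competes with Salvador for Hippo, was higher by 0.62 ± 0.10 (SE; edgeR, adjusted p = 0.000394). The scaffold gene sav had 1067, 1028 and 1020 counts in the controls against 1426, 1441 and 1357, a log2 difference of 0.38 ± 0.07 (SE; edgeR, adjusted p = 0.00106). mats, the cofactor of Warts, and Tgi, a corepressor that binds Scalloped, did not pass, with log2 differences of -0.13 and -0.16 (edgeR, adjusted p = 0.165 and 0.152). Once the length trend was removed, 6 of the 13 were higher and 1 lower, where 2432 and 2749 of all 8361 genes were. The log2 differences were then 0.80 for Hipk, 0.27 for Tao, 0.48 for Rassf and 0.39 for sav, all still called, and -0.06 for mats and -0.17 for Tgi, neither called.

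Among 7 genes that act with or downstream of Fat and Dachsous, 4 were higher and 2 lower, against 30.9% and 31.6% of all genes. With the length trend removed 3 were higher and 2 lower, where 2432 and 2749 of all 8361 genes were. The myosin gene d (dachs), whose product lowers Warts, had 8598, 7952 and 8056 counts in the controls against 11539, 13035 and 12935, a log2 difference of 0.55 ± 0.09 (SE; edgeR, adjusted p = 0.000751). app (approximated), a palmitoyltransferase that acts on Fat and helps place Dachs at the membrane, was higher by 0.70 ± 0.12 (SE; edgeR, adjusted p = 0.000892). Fbxl7, an F-box protein downstream of Fat, was higher by 0.23 (edgeR, adjusted p = 0.044) but did not pass with the length trend removed (0.12, adjusted p = 0.166). lft (lowfat), which raises the levels of the Fat and Dachsous proteins, had 2798, 2595 and 2628 counts in the controls against 2095, 2116 and 1958, a log2 difference of -0.44 ± 0.08 (SE; edgeR, adjusted p = 0.000706). The calls of d, app and lft held with the length trend removed, with log2 differences of 0.23, 0.29 and -0.31. Without control replicate 1, d and app were the 2 genes higher, where 2456 of 8500 genes tested were. The 1 gene lower was lft without any single control library, or without Nrf2 overexpression replicate 1 or 2. Of all genes tested in these fits, the number lower ran from 2208 of 8516 (without control replicate 3) to 2760 of 8469 (without Nrf2 overexpression replicate 1).

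STRIPAK, a phosphatase complex that removes the activating phosphate from Hippo, and kinases that act beside Hippo were examined as 11 genes, of which 3 were higher and 2 lower, against 30.9% and 31.6% of all genes. With the length trend removed 1 was higher (Sik2) and 4 were lower (Cka, Strip, mts and GckIII). In that fit 2432 of all 8361 genes were higher and 2749 lower. Sik2, a salt-inducible kinase that phosphorylates Salvador, had 35, 36 and 34 counts in the controls against 176, 196 and 128. All Nrf2 overexpression libraries were above the controls, by a log2 difference of 2.18 ± 0.20 (SE; edgeR, adjusted p = 2.13e-05), or 1.92 with the length trend removed. The phosphatase subunit gene mts had a log2 difference of -0.50 ± 0.09 (SE; edgeR, adjusted p = 0.001), or -0.60 with the length trend removed. GckIII, a kinase of the complex, had one of -0.47 ± 0.08 (SE; edgeR, adjusted p = 0.000641), or -0.48 with the length trend removed. Sik2 was the 1 gene called higher without control replicate 2, control replicate 3, Nrf2 overexpression replicate 2 or Nrf2 overexpression replicate 3. In these fits 2308 of 8493, 2171 of 8516, 2294 of 8471 and 2516 of 8517 genes tested were higher. Without Nrf2 overexpression replicate 1, 5 of the 11 were higher, where 2714 of 8469 genes tested were.

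Genes described as Yorkie targets, other than ex, Mer, kibra and fj, were examined as a further list. Of 13 listed, 12 were matched and 10 had enough counts for the test. By edgeR, 2 were higher, Myc and Ser, and 0 lower, against 30.9% and 31.6% of all genes, with a median log2 fold change of -0.02. The numbers were also 2 and 0 at an unadjusted p under 0.05, with DESeq2 and with limma-voom. Of all 8361 genes, 2612 were higher and 2489 lower with DESeq2, and 2574 and 2657 with limma-voom. At an unadjusted p the share of all genes was not counted. Myc, a driver of cell growth and of cell competition, had 2016, 1488 and 1759 counts in the controls against 2662, 3162 and 3790. The groups did not overlap, and the log2 difference of Myc was 0.81 ± 0.14 (SE; edgeR, adjusted p = 0.000776), or 0.39 with the length trend removed (adjusted p = 0.00332). Ser, a ligand of Notch, was higher by 0.36 (edgeR, adjusted p = 0.0427) but not called with the length trend removed (0.06). Myc was the 1 gene called without control replicate 2, control replicate 3, Nrf2 overexpression replicate 2 or Nrf2 overexpression replicate 3. In these fits 54.1%, 51.4%, 53.3% and 57.9% of all genes tested were called. Diap1, the caspase inhibitor, had 7620, 6877 and 7053 counts in the controls against 7550, 6529 and 6273, a log2 difference of -0.15 ± 0.10 (SE; edgeR, adjusted p = 0.222). Diap1 was the 1 target called lower without Nrf2 overexpression replicate 1, where 2760 of 8469 genes tested were lower. CycE, which drives entry into S phase, differed by -0.03 ± 0.10 (SE; edgeR, adjusted p = 0.822). With the length trend removed, 5 of the 10 were called, against 62% of all genes, and the median was -0.20, against -0.02 over all genes. Of these 5, Myc was higher and 4 targets were lower, where 2432 and 2749 of all 8361 genes were. The 4 were Diap1 (-0.24; edgeR, adjusted p = 0.036), CycE (-0.29; edgeR, adjusted p = 0.0121) and the glypican genes dally and dlp (-0.24 and -0.19, against -0.02 for either before removal).

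**Figure D5:**
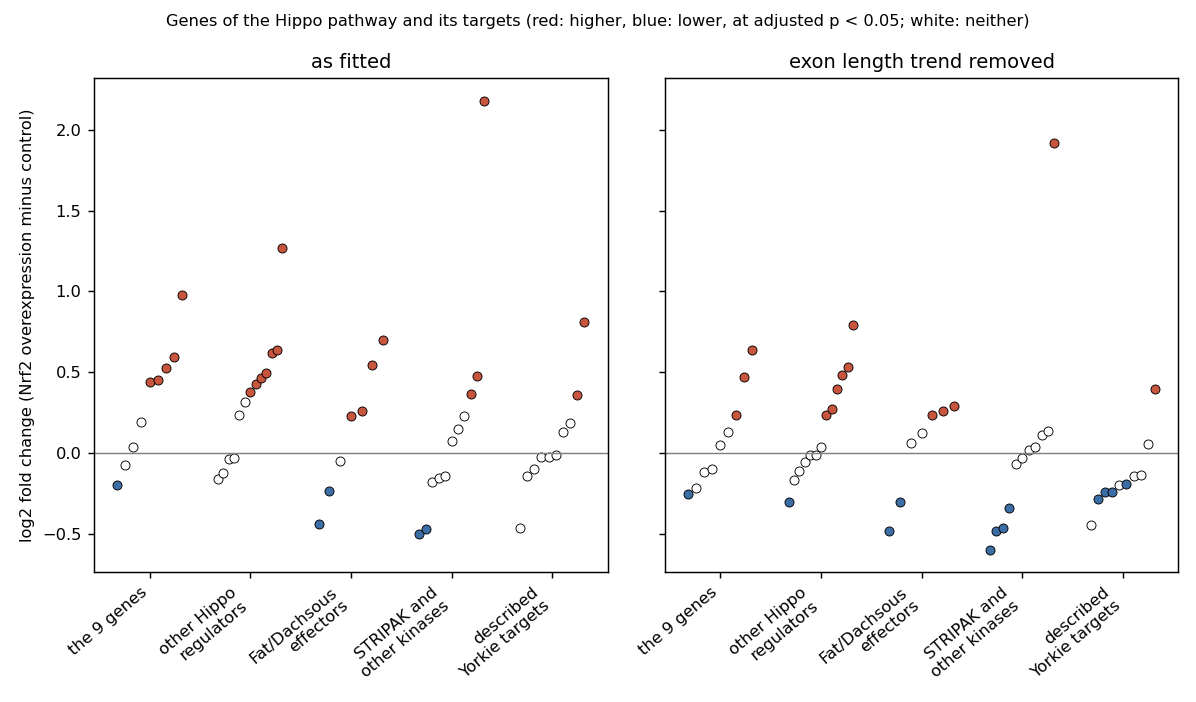
Log2 fold change (Nrf2 overexpression minus control) of each tested gene in the 9-gene set and 4 lists of other pathway genes, from the fit without (left) and with (right) removal of the trend with exon length. Red marks genes called higher, blue genes called lower and white genes not called at an adjusted p-value under 0.05. For the described Yorkie targets, 2 genes are higher on the left, and 1 is higher and 4 are lower on the right. Of all 8361 genes tested, 2585 were higher and 2644 lower without removal, and 2432 and 2749 with it.

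Markers of disc regions and of hormone response moved beside these genes, and their part in the results was not tested. Of 4 pouch markers, 2 were higher (rn, log2 difference 0.72, and vg) and 1 lower (Dll, -0.40), against 30.9% and 31.6% of all genes. The 4 pouch markers summed to 538 to 684 CPM in control and 642 to 827 CPM in Nrf2 overexpression. After removal of the length trend, 2 pouch markers were higher and 2 lower, where 2432 and 2749 of all 8361 genes were. Of 6 notum markers, 0 were higher and 3 lower by edgeR's test (pnr, -0.54, eyg, -0.51, and ara, -0.38), against 31.6% of all genes lower. At an unadjusted p under 0.05, with DESeq2 and with limma-voom the numbers were also 0 and 3. Of all 8361 genes, 2489 were lower with DESeq2 and 2657 with limma-voom, and the share at an unadjusted p was not counted. With the length trend removed 5 were lower, where 2749 of all 8361 genes were. The 6 notum markers summed to 507 to 581 CPM in control and 458 to 540 CPM in Nrf2 overexpression. Of the 8 disc identity genes, which include the 4 pouch markers, 3 were higher and 2 lower, against 30.9% and 31.6% of all genes. With the length trend removed 2 were higher and 3 lower, where 2432 and 2749 of all 8361 genes were. Among them dpp, a growth factor gene, was higher (0.42) but was not called with the length trend removed (0.15). The gene en went the other way (-0.26; edgeR, adjusted p = 0.0495) and was lower with the trend removed as well (-0.32).

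Several genes that respond to the steroid hormone ecdysone, which times larval development, differed more between the groups than any of the 9 genes. Of 8 tested, 2 were higher and 5 lower, against 30.9% and 31.6% of all genes. The nuclear receptor gene Hr3 had 561, 403 and 177 counts in the controls against 6, 2 and 0 with Nrf2 overexpression. Blimp-1, a transcriptional repressor, had 665, 348 and 486 counts against 1, 8 and 3. Eip78C had 801, 424 and 506 counts against 8, 38 and 22, and Hr4 831, 454 and 456 against 36, 31 and 37. These 4 genes were thus near 0 or strongly lower in every Nrf2 overexpression library, with fitted log2 differences of -7.14, -6.98, -4.72 and -4.11 (edgeR, each called). The receptor gene EcR and the nuclear receptor gene ftz-f1 were higher, by 1.42 and 2.77, and the summed level of the ecdysone genes, 468 to 594 CPM in control and 583 to 717 CPM in Nrf2 overexpression, does not show the losses. The direction of each of these 6 genes held with the length trend removed. Hr4, EcR and ftz-f1 were named after their values were seen.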

How the data were processed

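The authors deposited whole-number counts of reads per gene for each of the 6 libraries, without normalization. Bowtie, FastQC 0.11.5 and the BDGP6 build are named in the submitters' processing notes. The Bowtie version, the counting tool and strand use are not given in the sources used here. Precision is set by the 3 libraries per group. Symbols came from a gene name table for 13661 of 13955 identifiers, and coordinates and exon lengths from Ensembl's BDGP6.54 annotation. No sequences were used.

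Differences were tested by edgeR 4.0.16 (R 4.3.3; TMM scaling, filterByExpr, quasi-likelihood test, Benjamini-Hochberg adjustment over 8361 genes) at an adjusted p-value under 0.05. Normalized counts are scaled to a common effective library size. The trend with exon length was removed by loess (span 0.5) of each library's deviation from the mean, entered as offsets. Ratios used counts plus 0.5 and an exact permutation test, adjusted over the 10 ratios. The members and lists were chosen with earlier results of these data known. Genes named are the 9 matched members, up to 3 genes of each list with the largest changes (adjusted p-value under 0.05, a mean of at least 50 normalized counts, no overlap of the groups), and Diap1, CycE, Myc, d, app, Fbxl7, sav, mats, Tgi, vg and cnc. Rep, crq, dally, dlp, Ser, Cka, Strip, Hr4, EcR, ftz-f1, en, Him and the uncalled markers named lie outside this rule and were named after their values were seen. Alternatives were other scalings, DESeq2 1.42.0, limma-voom (limma 3.58.1), other filters, the replicate number as a block, each library left out, fold limits, and a threshold of 0.01. Removal of the trend with each library left out was added after seeing the data, as were the ratios fj/ft, ex/wts, kibra/wts and Mer/fj. The procedures were run on simulated data in which all libraries of a group shared the same linear slope with exon length. Slopes of the real libraries differed within a group, so the simulation does not cover that case. It also cannot tell whether removal of the trend takes away a real effect tied to length.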

Additional observations from a re-analysis of the deposited data

How the results depend on the processing

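The calls of ex and Mer held under every alternative run, and that of kibra under all but removal of the length trend without control replicate 3. The number of members higher, 5, was 3 (ex, Mer and kibra) with the length trend removed, alone or with the replicate block, with fold limits of 1.4 and 0.6, and at an adjusted p-value under 0.01. Of all 8361 genes, 2432 were higher with the trend removed, 2276 with the block in addition and 20.5% with the fold limits. The number of members higher ran from 3 to 6 without single libraries and from 2 to 4 with the trend removed as well. Over all genes tested the number higher then ran from 2171 of 8516 to 2714 of 8469, and with the trend removed from 2054 of 8516 to 2388 of 8469. The number lower, 1, was 0 with total counts only, DESeq2's Wald test, no filter, the replicate block, the fold limits and the threshold of 0.01. The number of members lower ran from 0 to 1 without single libraries and from 1 to 3 with the trend removed as well, where the 3 were ft, fj and hpo without Nrf2 overexpression replicate 3. Over all genes tested the number lower then ran from 2208 of 8516 to 2760 of 8469, and with the trend removed from 2367 of 8516 to 2826 of 8517. Over the 41 other pathway genes tested, 16 were higher, against 30.9% of all genes. This number was 10 with trend removal and block, where 2276 of all 8361 genes were higher. It was 8 with the fold limits, against 20.5% of all genes, and 10 at 0.01, where the share of all genes was not counted. The number lower was 4, against 31.6% of all genes. It was 7 with upper-quartile scaling, 11 with the trend removed, and 10 with trend removal and block. In these fits 2948, 2749 and 2588 of all 8361 genes were lower. With the fold limits it was 0, against 12.4% of all genes.

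Signs turned as follows, and the cause was not tested. With the trend removed, ft had a log2 fold change of -0.1192, and wts -0.1017. With the block in addition they had -0.1228 and -0.0992. Without single libraries in addition (control replicates 1 to 3, then Nrf2 overexpression replicates 1 to 3), ft had -0.1069, -0.1502, -0.1313, -0.0877, -0.0824 and -0.2086. For wts these values were -0.0365, -0.1623, -0.1205, -0.0838, -0.0699 and -0.1562, and sd had -0.012 without control replicate 2. yki had -0.0333 with upper-quartile scaling. Without single libraries, fj ran from -0.1537 to 0.006 and yki from -0.0155 to 0.1319. The log2 ratio of yki to wts differed by -0.31 to 0.0083 and that of vg to sd by -0.0732 to 0.0402.

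Over all genes, libraries of the same number did not deviate together (correlations of -0.209, 0.088 and 0.127), so the number was not read as a pairing. Fat body markers did vary with the number. Fbp1 had 1256, 566 and 59 counts in the controls against 617, 228 and 13. With the block 3 of the 5 fat body markers were lower, where 2320 of all 8361 genes were, against 0 without it. The cause was not tested. The replicate block took the genes called from 62.5% to 55.1% and the call of hpo away (adjusted p = 0.14), and with trend removal in addition d was no longer called. The ratios of ds to ft and of fj to ds were not run, as ds is not analysed here. Upper-quartile scaling and total counts moved the median of all genes to -0.09 and 0.04 on the log2 scale.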

Other observations

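Other cell types that a dissected disc can hold were followed through marker lists, given here as values. Of 5 markers of adult muscle precursors, which adhere to the notum, 3 were lower by edgeR's quasi-likelihood test at an adjusted p-value under 0.05, against 31.6% of all genes, and they summed to 219 to 255 CPM in control and 197 to 225 CPM in Nrf2 overexpression. The precursor regulator twi had a log2 fold change of -0.64 and zfh1 one of -0.39. Him was also lower (-0.76) but was not called with the length trend removed (-0.51). Mef2 went the other way (0.15; edgeR, adjusted p = 0.113), uncalled but without overlap of the groups, and htl (-0.10; adjusted p = 0.472) was not called. With the length trend removed 3 of the 5 were lower, where 2749 of all 8361 genes were. Of 3 hinge markers, zfh2 (0.33) and tsh (0.26) were higher, against 30.9% of all genes. With the trend with exon length removed, 0 of the 3 were higher and 1 was lower, where 2432 and 2749 of all 8361 genes were. Of 2 genes listed as tracheal markers, kni was lower (-0.67), against 31.6% of all genes, whereas trh had a log2 fold change of 0.23 (edgeR, adjusted p = 0.0648). They summed to 124 to 151 CPM in control and 117 to 138 CPM in Nrf2 overexpression. Whether the counts of kni and trh came from tracheal cells or from the disc itself was not tested. Of 5 haemocyte markers, 2 had enough counts to test, and they differed in opposite directions. Pxn was higher (0.54) but was not called with the length trend removed (edgeR, adjusted p = 0.25), while Hml, at -0.69, was not called (adjusted p = 0.174) but was lower with the trend removed (adjusted p = 0.0436). Of those too low to test, eater had 17, 18 and 6 counts in the controls against 4, 4 and 3, srp 15, 11 and 7 against 4, 6 and 2, and NimC1 was at 0 to 5. The haemocyte markers summed to 10.8 to 16.1 CPM in control and 14.6 to 20.6 CPM in Nrf2 overexpression, and most of that sum was Pxn. The part of these cell types in the results on the Hippo and Fat/Dachsous genes was not tested.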
